A study of Mus musculus with 2 samples.

Results

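Ly6a, Ly6e, Ly6c1 and Ly6c2 are 4 genes of the Ly6 family of small surface proteins, and their transcripts were followed here in single cells of MC38 tumour spheroids. The members were taken by gene symbol, and each of the 4 had its own entry among the 28692 genes counted in both libraries. MC38 is a mouse colon carcinoma line, grown as tumours in C57BL/6 albino mice. Pieces of dissociated tumour were embedded in collagen, held in a microfluidic chip for 6 days, and then sorted for tumour cells, by markers not given in the sources used here. One culture received a control IgG (clone 2A3) and the other an antibody blocking PD-1, an inhibitory receptor of T cells (aPD-1, clone RMP1-14), both at 10 µg/mL. Each treatment has 1 library of 10x 3′ single-cell RNA, so every difference between treatments below is a difference between 2 libraries, with no replicate check. Ranges in brackets after a value are 95% intervals that cover counting error only, and no p-value was computed.

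Most Ly6 proteins are held in the outer membrane by a glycosylphosphatidylinositol (GPI) anchor and many are induced by interferons. Ly6a encodes Sca-1, a marker of haematopoietic stem cells that endothelial cells and mesenchymal progenitors also carry. Ly6e is expressed in many tissues and is a classical interferon-stimulated gene. Ly6c1 and Ly6c2 encode the nearly identical antigens detected as Ly-6C, which marks inflammatory monocytes and some endothelial cells. The comparison asks what sets apart MC38 tumour cells still present once PD-1 has been blocked.

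The members lie together on chromosome 15 (GRCm38, GENCODE M21), within 156.9 kb, and all are annotated as protein-coding. Ly6e (ENSMUSG00000022587) lies at chr15:74955051-74959905 on the plus strand. The others lie on the minus strand, Ly6a (ENSMUSG00000075602) at chr15:74994877-74998031, Ly6c1 (ENSMUSG00000079018) at chr15:75044018-75048830 and Ly6c2 (ENSMUSG00000022584) at chr15:75108158-75111970. The coding sequences of Ly6c1 and Ly6c2 were identical at 387 of 396 aligned bases (97.7%), those of Ly6a and Ly6c1 at 83.8%, and those of Ly6e and Ly6c1 at 59.9%. The last 120 coding bases, all within the final exon, are shown because counting at the 3′ end has to tell these genes apart. Capitals mark bases that differ from Ly6c1, of which Ly6c2 has 2 and Ly6a has 8. The stretches are chr15:75045402-75045521 (Ly6c1), chr15:75108543-75108662 (Ly6c2) and chr15:74995262-74995381 (Ly6a), all read on the minus strand from the GENCODE M21 transcripts.
Ly6c1: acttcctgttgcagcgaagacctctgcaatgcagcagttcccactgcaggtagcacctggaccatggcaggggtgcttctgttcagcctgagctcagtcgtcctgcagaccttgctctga
Ly6c2: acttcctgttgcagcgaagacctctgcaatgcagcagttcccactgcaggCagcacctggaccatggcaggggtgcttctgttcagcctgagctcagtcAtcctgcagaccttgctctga
Ly6a: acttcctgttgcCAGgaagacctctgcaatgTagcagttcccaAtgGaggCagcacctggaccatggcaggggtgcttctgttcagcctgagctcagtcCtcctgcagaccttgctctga

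Of the 451 words of 50 bases in the last 500 bases of the annotated Ly6c1 transcript, 90 (20.0%) also occurred in Ly6c2. Of those in Ly6a none occurred in Ly6c1 and 3 in Ly6c2, and Ly6e shared none with the other members. The cells themselves show how far the counts kept the genes apart. In 125 macrophage-like cells of the IgG library, described below, Ly6a had 281 UMIs (unique molecular identifiers, each 1 counted RNA molecule), Ly6c2 had 57 and Ly6c1 had 2. In 26 endothelial-like cells of the same library Ly6a had 665 UMIs, Ly6c1 had 339 and Ly6c2 had 0. High Ly6a counts were thus found with hardly any Ly6c1 counts, and high Ly6c1 counts with no Ly6c2 counts.

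The upstream sequences of Ly6c1 and Ly6c2 are shown because these near-copies were found in different cells. The RefSeq promoter table (GRCm38.p6) matched 2 of the 4 members, Ly6c1 and Ly6c2, with 4 windows in all, of which the best-aligning pair is shown. The 250 bases before the start site are chr15:75048838-75049087 (Ly6c1) and chr15:75111972-75112221 (Ly6c2), both on the minus strand. Capitals mark E-boxes (CANNTG, a general pattern whose variants are bound by different factors).
Ly6c1 promoter: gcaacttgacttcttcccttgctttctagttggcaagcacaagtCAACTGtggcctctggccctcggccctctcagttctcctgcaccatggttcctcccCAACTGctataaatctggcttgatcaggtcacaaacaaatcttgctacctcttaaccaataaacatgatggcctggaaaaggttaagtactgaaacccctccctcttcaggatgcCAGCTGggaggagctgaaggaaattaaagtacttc
Ly6c2 promoter: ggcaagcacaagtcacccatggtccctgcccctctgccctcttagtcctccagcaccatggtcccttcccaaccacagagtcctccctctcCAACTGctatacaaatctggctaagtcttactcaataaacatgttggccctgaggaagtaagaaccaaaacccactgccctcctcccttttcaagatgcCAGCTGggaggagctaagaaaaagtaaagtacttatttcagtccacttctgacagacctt
In this pair 164 of 216 aligned bases were identical (75.9%), less than in the coding sequences. Ly6c1 had 3 E-boxes and Ly6c2 had 2, where 66.2% of 32851 promoter windows of the same length had at least 1. Neither window held an interferon-stimulated response element (2.98% of windows did) or a gamma-activated site (TTCNNNGAA, found in 7.02%), on either strand.

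The tumour cells compared are those of at least 5000 UMIs and at most 10% mitochondrial UMIs outside clusters named as another cell type. They numbered 2173 in IgG, with a median of 20714 UMIs, and 3352 in aPD-1, with a median of 16581 UMIs, and 8 barcodes were shared between the libraries. The share of UMIs from ribosomal protein genes was 34.6% under IgG and 38.2% under aPD-1. Epithelial markers were close to absent, with a summed level of 10 genes of 0.530 CPM (counts per 1000000 UMIs) under IgG and 0.228 CPM under aPD-1, whereas 14 fibroblast markers summed to 1261 and 887 CPM. That they are tumour cells is therefore taken from the sort alone, which some cells of other types also passed. The 18 endothelial markers summed to 87.5 and 64.5 CPM and the 18 macrophage or monocyte markers to 42.1 and 29.2 CPM.

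Ly6e was the most abundant member by a wide margin, Ly6a came next, Ly6c1 was low and Ly6c2 was at or near 0. In 3′ counting each molecule is counted once whatever its length, so CPM needs no scaling by length between genes. Whether the sequence that Ly6c1 and Ly6c2 share lowered their counts was not tested. Ly6e stood at 467 CPM under IgG (461 to 473) and 473 CPM under aPD-1 (468 to 479), at rank 272 of 16730 and 240 of 16684 genes with a UMI. Ly6a stood at 63.9 CPM (61.7 to 66.2) and 59.2 CPM (57.3 to 61.2), at rank 2021 and 2026. Ly6c1 stood at 18.6 CPM (17.4 to 19.8) and 15.2 CPM (14.2 to 16.2). Ly6c2 had 0 UMIs in the IgG cells, where a count of 0 allows up to 0.0611 CPM, and 7 UMIs in the aPD-1 cells (0.114 CPM, interval 0.0458 to 0.235). The order of the 4 members was the same in both libraries, and no neighbours in that order had overlapping intervals.

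The members also differed in how they were spread over cells. To compare shares of cells, each cell was thinned at random to 5000 UMIs. Ly6e was then found in 83.0% of cells under IgG (81.4 to 84.6%) and in 83.1% under aPD-1 (81.8 to 84.4%). Ly6a was found in 19.4% (17.7 to 21.1%) and 18.2% (16.9 to 19.5%). A Poisson spread of the same mean would have put Ly6a in 28.1% and 28.6% of cells, so its UMIs were gathered in fewer cells than even sharing gives. The tenth of cells with most Ly6a held 71.5% of its UMIs in IgG and 75.7% in aPD-1. The variance of Ly6a over cells was 2.41 times its mean in IgG and 2.73 times in aPD-1, above 97.2% and 98.2% of the genes of at least 10 CPM. Ly6e was also spread unevenly, as Poisson spread would have put it in 92.1% and 92.2% of cells. Its variance was 2.06 and 2.02 times its mean, above 96.1% and 96.6% of those genes. Neither Ly6a nor Ly6e was set beside genes of like level, and Ly6e ranked 272 and 240 in level. These percentages therefore do not separate uneven spread from abundance. Cells with 3 or more Ly6a UMIs made up 3.31% under IgG (72 cells, 2.60 to 4.15%) and 3.58% under aPD-1 (120 cells, 2.98 to 4.27%).

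Ly6c1 was found in 6.49% of thinned cells under IgG (5.49 to 7.61%) and in 5.91% under aPD-1 (5.13 to 6.76%), where Poisson spread would give 10.0% and 8.37%. Its variance was 2.65 and 2.08 times its mean. Ly6c2 was found in 0 of 2173 IgG cells, which allows up to 0.138%, and in 3 aPD-1 cells (0.0895%, interval 0.0185 to 0.261%). Without thinning, the shares were 97.0% and 97.0% for Ly6e, 39.7% and 35.5% for Ly6a, 17.0% and 14.2% for Ly6c1, and 0% and 0.209% for Ly6c2, IgG first. None of the 4 shares at 5000 UMIs differed between the libraries beyond its counting interval.

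**Figure D1:**
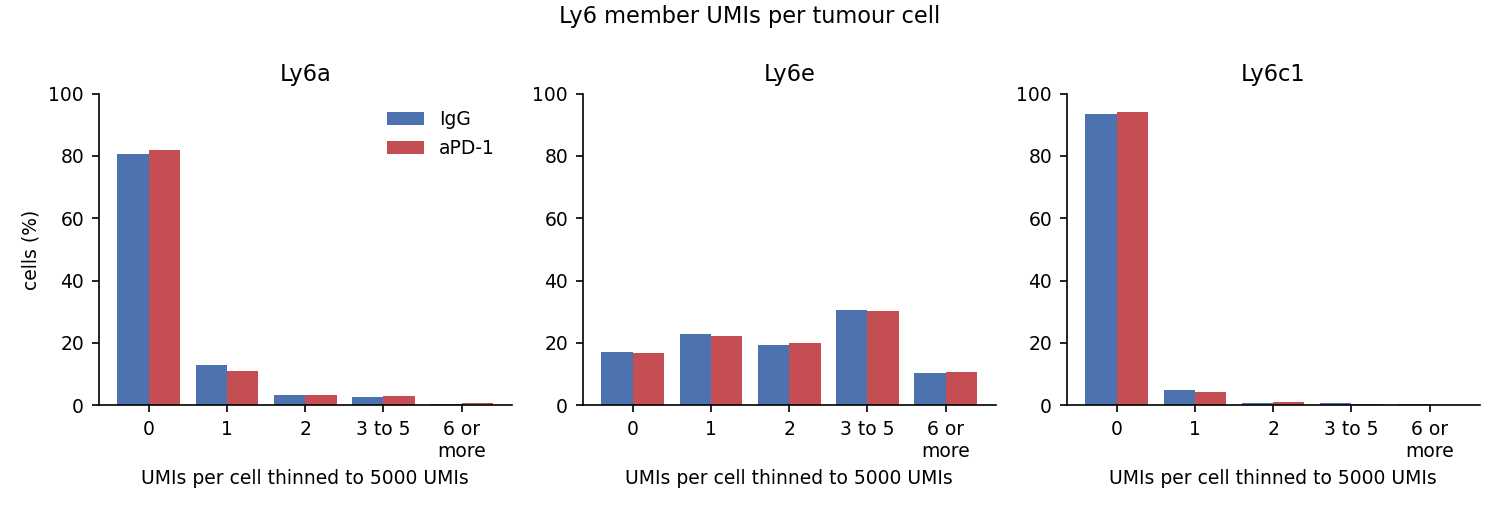
Share of tumour cells (percent, vertical axis) by number of UMIs of Ly6a, Ly6e and Ly6c1 per cell after thinning to 5000 UMIs (horizontal axis), IgG blue and aPD-1 red, 1 library each. Most cells had no Ly6a (80.6% in IgG, 81.8% in aPD-1) and no Ly6c1 (93.5% and 94.1%), while only 17.0% and 16.9% had no Ly6e.

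Among the 4 large tumour cell clusters Ly6a was highest in cluster 0 and lowest in the cluster led by mitotic genes. Clusters were formed without the Ly6 and uPAR family genes, so that members' levels did not place the cells. Cluster 0 led in Cilp, Spib, Gsn, Fxyd1 and Col3a1, and had Ly6a at 102 CPM under IgG (97.1 to 106) and 125 CPM under aPD-1 (120 to 131). Cluster 1 led in the mitotic genes Cdc20, Hmmr, Cenpa, Plk1 and Cenpe, and had Ly6a at 31.3 CPM (28.7 to 34.1) and 28.2 CPM (25.9 to 30.7). Cluster 2, with the hypoxia genes Car9 and Ero1l, the metallothioneins Mt2 and Mt1, and Nrn1, had Ly6a at 51.6 and 51.7 CPM. Cluster 3, led by the replication histones Hist1h1b, Hist1h2ap, Hist1h1a, Hist1h2ae and Hist1h2ac, had it at 52.2 and 38.5 CPM. Cluster 4, of 84 IgG and 118 aPD-1 cells led by Mx1, Oasl1, Ccrl2, Ifit3b and Ifit1, had it at 45.5 and 52.5 CPM. In both libraries the interval of cluster 0 lay above, and that of cluster 1 below, those of clusters 2 and 3.

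Ly6e and Ly6c1 were likewise highest in cluster 0 among clusters 0 to 3, but over a smaller range for Ly6e. Ly6e ran from 313 CPM in cluster 2 to 587 CPM in cluster 0 in IgG, and from 328 to 645 CPM in aPD-1. Ly6c1 ran from 10.5 CPM in cluster 1 to 27.8 CPM in cluster 0 in IgG, and from 9.36 to 29.5 CPM in aPD-1. Its level in aPD-1 cluster 3, 9.87 CPM (8.33 to 11.6), did not differ from that of cluster 1 beyond the intervals. The 7 Ly6c2 UMIs of the aPD-1 cells fell as 5 in cluster 0, 1 in cluster 1 and 1 in cluster 2.

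How high Ly6a stood in interferon-rich cells depended on how finely the cells were divided. At a finer resolution, chosen after seeing the data, a cluster of 109 IgG and 209 aPD-1 cells again led in Mx1, Ifit3b and Ifit1, and had Ly6a at 159 CPM (142 to 177) and 203 CPM (187 to 219). The clustered cells, of any depth, that both divisions placed in their Mx1-led cluster, 26 in IgG and 61 in aPD-1, had Ly6a at 76.8 and 76.6 CPM. In these cells Mx1, an antiviral GTPase, was at 360 and 296 CPM and the type I interferon list summed to 16638 and 16498 CPM. Cells in the fine cluster alone, 87 and 148, had less Mx1, at 45.2 and 41.3 CPM, and a list sum of 9010 and 8421 CPM, yet had Ly6a at 189 CPM (168 to 212) and 271 CPM (249 to 294). Cells in the coarse cluster alone, 60 and 59, had Mx1 at a like level, 53.9 and 45.6 CPM, the lowest list sums, 5241 and 4630 CPM, and the lowest Ly6a, 26.4 and 26.6 CPM. Across these 3 sets of cells, Ly6a thus followed neither Mx1 nor the list sum. Also at the finer resolution, Ly6a was at 111 and 167 CPM in cells led by Lbp, Gsn and Cpq, and at 103 and 130 CPM in cells led by Bbs2, Ifitm1 and Whrn, with Cd74 and H2-Aa among their top 10 genes. Cells led by Cdc20, Ccnb1 and Plk1 had Ly6a at 15.8 and 23.1 CPM, well below its level over all tumour cells.

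Cells of other types that passed the sort carried far more Ly6a and Ly6e per UMI than tumour cells, while Ly6c1 was high only in the endothelial-like and Ly6c2 only in the macrophage-like ones. The 26 endothelial-like IgG cells, named from Emcn, Esam and Cd93, had Ly6a at 2087 CPM (1931 to 2252) and in all 26 cells, Ly6e at 1346 CPM and Ly6c1 at 1064 CPM. The 4 endothelial-like aPD-1 cells had Ly6a at 1833 CPM (1476 to 2251), Ly6e at 1209 CPM and Ly6c1 at 322 CPM (184 to 523). The 125 macrophage or monocyte-like IgG cells had Ly6a at 1281 CPM (1136 to 1440) and Ly6e at 1058 CPM. They were the only group of cells with an appreciable level of Ly6c2, at 260 CPM (197 to 337), with a UMI in 17.6% of cells (11.4 to 25.4%) at a median depth of 1268 UMIs. Ly6c1 was at 9.12 CPM there (1.10 to 32.9). The aPD-1 library had no macrophage-like cell among those clustered. Only 2 of the 125 IgG macrophage-like cells reached 5000 UMIs. The floor for clustering in aPD-1, the order-of-magnitude cell call, was 4593 UMIs. In the 462 aPD-1 barcodes of 1000 to 4999 UMIs, before the other filters, the 18 macrophage or monocyte markers summed to 327 CPM. That sum was 39615 CPM in the IgG macrophage-like cells. The part of the floors in this absence was not tested.

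**Figure D2:**
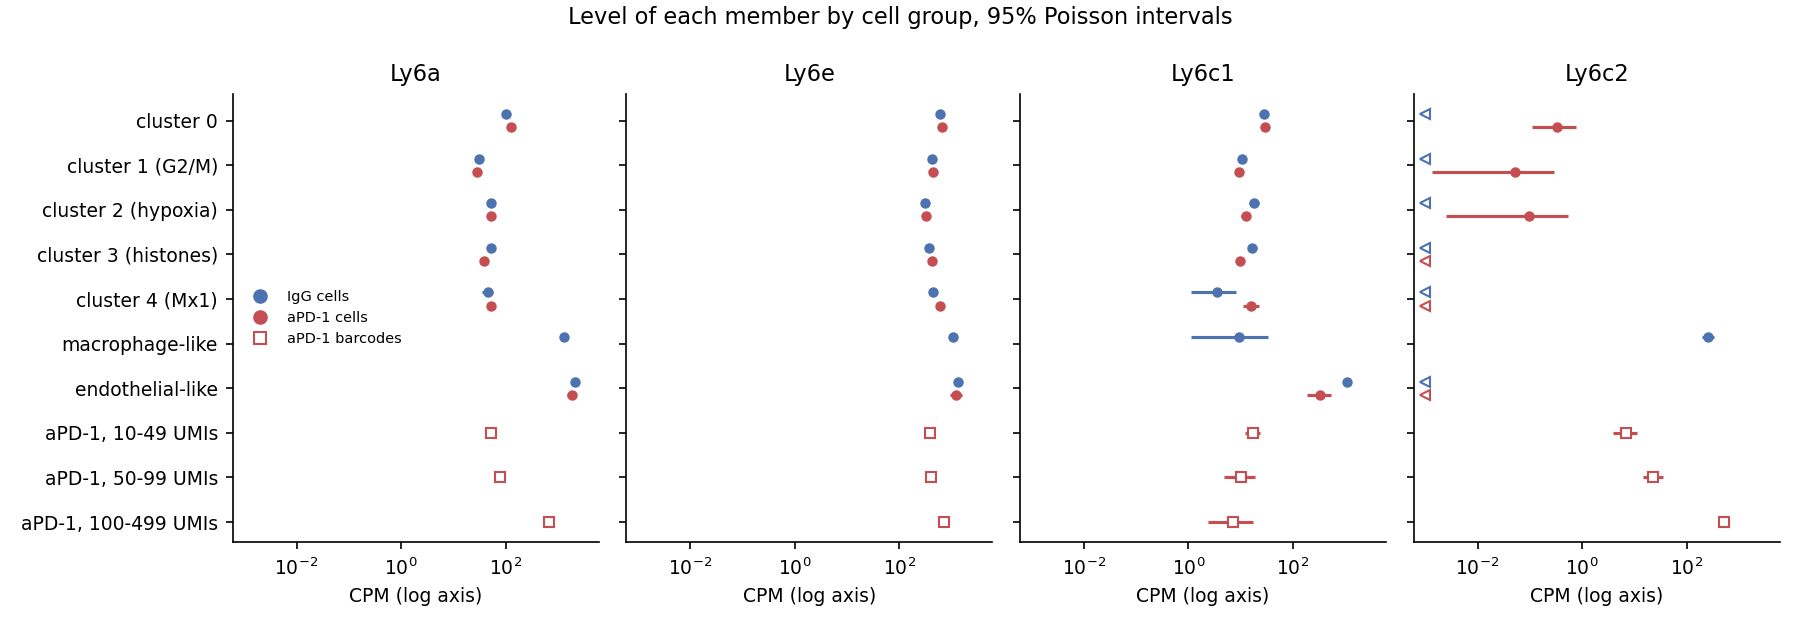
Level of each member (CPM, log axis) in cells of 5000 UMIs or more of clusters 0 to 4, in macrophage-like and endothelial-like cells, and in aPD-1 barcodes of low depth, with 95% Poisson intervals; filled points are cells (IgG blue, aPD-1 red), open squares are aPD-1 barcodes, and open arrowheads at the left edge mark groups with 0 UMIs. Ly6a and Ly6e are highest in the endothelial-like cells (2087 and 1346 CPM in IgG), and Ly6c2 stands at 260 CPM in macrophage-like cells and at 524 CPM in aPD-1 barcodes of 100 to 499 UMIs.

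The aPD-1 matrix also lists barcodes far below the depth of the cells. In the 89441 barcodes of 10 to 100 UMIs (median 36), Ly6a stood at 59.7 CPM (51.7 to 68.5), which is 1.01 times its level in aPD-1 tumour cells (0.869 to 1.16). Ly6c1 stood at 15.0 CPM, 0.989 times the cell level (0.729 to 1.31). Ly6e stood at 388 CPM, 0.820 times the cell level (0.775 to 0.866). Ly6c2 stood at 12.3 CPM (8.82 to 16.7), 108 times its level in the cells (47.9 to 285). If each aPD-1 tumour cell had carried as much RNA of this make-up as the median such barcode, 36 UMIs, the 3352 cells would together have held 1.48 Ly6c2 UMIs, 7.20 Ly6a UMIs and 46.8 Ly6e UMIs, beside the 7, 3638 and 29071 counted.

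A finer look by depth, chosen after seeing the data, placed most Ly6c2 UMIs in 1 depth class, with 362 at 100 to 499 UMIs and 16, 23, 4, 12 and 7 in the others. In 3592 aPD-1 barcodes of 100 to 499 UMIs, Ly6c2 stood at 524 CPM (362 UMIs, interval 471 to 581), Ly6a at 663 CPM (604 to 727) and Ly6e at 705 CPM, whereas Ly6c1 was at 7.24 CPM (5 UMIs, interval 2.35 to 16.9). The 18 macrophage or monocyte markers summed to 15534 CPM in the same barcodes, with 1424 UMIs of Lyz2 (lysozyme) and 662 of C1qa (a complement subunit made by macrophages). T or NK cell markers summed to 468 CPM and B cell markers to 235 CPM there. In aPD-1 barcodes of 10 to 49 UMIs Ly6c2 was at 6.87 CPM and the macrophage sum at 258 CPM, and in those of 5000 UMIs or more, before the other filters, they were at 0.113 and 29.2 CPM. High Ly6a and Ly6c2 with almost no Ly6c1 was also found in the IgG macrophage-like cells, but in other proportions. There Ly6a was at 1281 CPM, Ly6c2 at 260 CPM and the macrophage or monocyte sum at 39615 CPM. Which cells the barcodes of 100 to 499 UMIs came from was not tested. The IgG matrix lists no barcode under 500 UMIs, so this depth class cannot be compared between treatments.

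**Figure D3:**
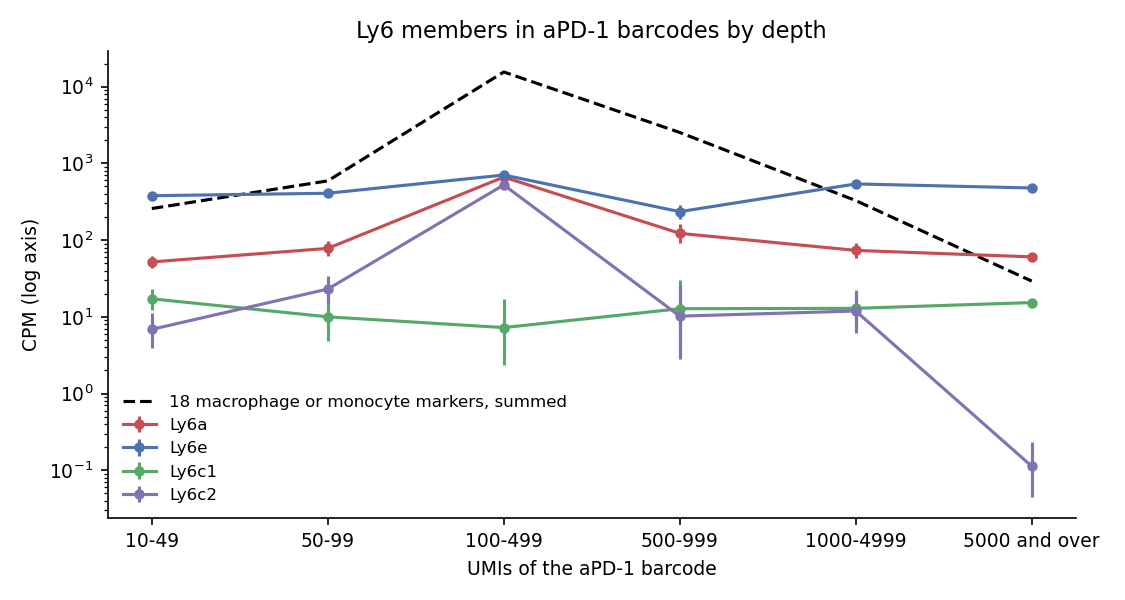
Level (CPM, log axis) of the 4 members with 95% Poisson intervals, and of 18 macrophage or monocyte markers summed (dashed), in aPD-1 barcodes grouped by UMIs (horizontal axis). Ly6a, Ly6c2 and the macrophage markers all peak at 100 to 499 UMIs (663, 524 and 15534 CPM), while Ly6c1 does not rise there (7.24 CPM).

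Ly6a and Ly6c1 were found in the same cells far more often than independent detection would give. At 5000 UMIs both were found in 81 IgG cells where 27.3 were expected from the shares, a ratio of 2.97 (2.36 to 3.67), and in 100 aPD-1 cells where 36.0 were expected, a ratio of 2.78 (2.27 to 3.37). Of the cells with Ly6c1, 57.4% in IgG and 50.5% in aPD-1 also had Ly6a, against 16.7% and 16.1% of cells without Ly6c1. With the expected number computed within clusters the ratio was 2.64 in IgG and 2.44 in aPD-1. Ly6a and Ly6e met in 1.10 times the expected number of IgG cells (just above 1 to 1.20) and in 1.13 times that number in aPD-1 (1.04 to 1.21). For Ly6e and Ly6c1 the ratios were 1.06 and 1.11, with intervals that include 1 (0.885 to 1.26 and 0.960 to 1.28). Ly6e was in 91.2% and 93.8% of Ly6a-positive cells and in 81.1% and 80.8% of the others, so a high ratio was out of reach for so widespread a gene. Ly6a met Snai1, a zinc finger repressor active in epithelial-mesenchymal change, in 1.19 times the expected number of IgG cells (just above 1 to 1.40) and 1.09 times that number in aPD-1 (0.919 to 1.28).

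Ly6c1 and Ly6e levels climbed with Ly6a. Ly6c1 was at 7.72 CPM in IgG cells with 0 Ly6a UMIs (1752 cells at 5000 UMIs), 34.6 CPM in the 278 cells with 1, 79.0 CPM in the 71 cells with 2, and 178 CPM (158 to 201) in the 72 cells with 3 or more. In aPD-1 the same classes, of 2743, 374, 115 and 120 cells, had Ly6c1 at 7.04, 29.4, 53.6 and 151 CPM (134 to 170). Ly6e was at 431, 578, 707 and 741 CPM in IgG and at 434, 599, 767 and 831 CPM in aPD-1. Median depth was alike across the classes in IgG, from 20176.5 to 20825 UMIs, but fell from 16976 to 14204 UMIs in aPD-1. Cluster 0 supplied 41.0% of IgG cells without Ly6a and 73.6% of those with 3 or more, and 26.6% and 72.5% in aPD-1.

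Endothelial, macrophage or monocyte, and fibroblast markers rose with Ly6a as well, whereas B cell markers did not. From cells with 0 to cells with 3 or more Ly6a UMIs, the 18 endothelial markers went from 80.2 to 160 CPM in IgG and from 56.8 to 138 CPM in aPD-1. Ecscr alone made 123 and 97.6 CPM of the upper values, and 10 of the 18 in IgG and 11 in aPD-1 were at 0 there, among them Emcn, Kdr, Tek, Cldn5, Robo4 and Vwf in both. The same sum was 10851 CPM in the endothelial-like IgG cells. In the far more numerous cells with 0 Ly6a UMIs, 0 of the 18 were at 0 in IgG and 6 in aPD-1. Emcn, Kdr, Tek and Cldn5 were among those 6. The 18 macrophage or monocyte markers went from 38.2 to 119 CPM and from 27.0 to 50.7 CPM, with Plac8 at 75.3 and 17.2 CPM of the upper values, and Csf1r, C1qc, Adgre1 and Mrc1 at 0 in both. The sum was 39615 CPM in the macrophage-like cells. Of these 18, 2 were at 0 in the cells with 0 Ly6a UMIs of each library, Adgre1 and Mrc1 in aPD-1. The 14 fibroblast markers went from 1135 to 2151 CPM and from 791 to 1852 CPM, led by Dcn. The 8 pericyte markers rose from 14.8 to 25.5 CPM in IgG and from 14.2 to 26.4 CPM in aPD-1. The 6 B cell markers fell from 15.5 to 6.55 CPM and from 8.81 to 7.01 CPM. The 14 T or NK cell markers, near 0 throughout, went from 1.73 to 2.62 CPM in IgG and from 1.88 to 0.539 CPM in aPD-1. Doublets were not removed, and their part in these sums was not tested.

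The gene whose level went most with Ly6a across IgG cells was Ly6c1, followed by Igfbp6, Ifitm3 and Ly6e. The measure is Pearson's r of log counts at 5000 UMIs per cell over 2173 IgG cells, read again over 3352 aPD-1 cells. These cells share a library and their counts are sparse, so the values are a description. Ribosomal protein, mitochondrial, haemoglobin and unnamed (Gm and Rik) genes were left aside, which left 6626 to rank. Ly6c1 came first in both libraries (r 0.37 and 0.31) and Igfbp6, which binds insulin-like growth factors, second in both (0.24 and 0.28). Next in IgG came Ifitm3, an antiviral membrane protein (0.21 and 0.23), Ly6e (0.19 and 0.22), the matrix protein Ecm1 (0.17 and 0.13) and Ifi204, an interferon-inducible DNA sensor (0.17 and 0.15). The rest of the 15 were Phlda3, Ramp2, Gbp2, Ifit3, Ifi27l2a, Ms4a4d, Fbln2, Apod and Tspo, at 0.15 to 0.17 in IgG. In aPD-1, 14 of the 15 were at 0.1 or more, with Fbln2 at 0.08, where 1.14% of all genes in IgG and 2.07% in aPD-1 reached 0.1. After cluster means were subtracted 14 of the 15 still reached it in aPD-1, and 11 did so after fine cluster means, when Ifit3 stood at 0.03.

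In levels, Igfbp6 was at 85.5 CPM in IgG cells with 0 Ly6a UMIs and at 353 CPM in those with 3 or more, a ratio of 4.13 (3.76 to 4.52). In aPD-1 it was at 70.9 and 330 CPM, a ratio of 4.65 (4.26 to 5.07). Gbp2, an interferon-inducible GTPase, was at 166 and 335 CPM in IgG, a ratio of 2.01 (1.84 to 2.20), and at 151 and 517 CPM in aPD-1, a ratio of 3.43 (3.20 to 3.67). Ifi27l2a, an interferon-stimulated gene, was at 269 and 595 CPM in IgG, a ratio of 2.21 (2.06 to 2.36), and at 158 and 703 CPM in aPD-1, a ratio of 4.44 (4.18 to 4.71). For both genes the ratio was larger in aPD-1 beyond its counting interval. The lowest r with Ly6a in IgG belonged to genes of nuclear proteins abundant in dividing cells, Ptma (−0.15), the histone variant H2afz (−0.14), Hmgb1 (−0.13) and Hmgb2 (−0.13), and to Pdap1 (−0.13). In aPD-1 these 5 stood, in the same order, at −0.13, −0.15, −0.12, −0.13 and −0.08. After cluster means were subtracted they stood nearer 0 there, at −0.09, −0.06, −0.06, −0.03 and −0.04. Hmgb2 was at 1071 CPM in IgG cells with 0 Ly6a UMIs and 548 CPM in those with 3 or more, and at 907 and 569 CPM in aPD-1.

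Pathway lists were read by how many members reached r of 0.1 with Ly6a, beside 1.14% of all genes in IgG and 2.07% in aPD-1. Of 27 type I interferon-stimulated genes of at least 10 CPM, 8 in IgG and 12 in aPD-1 had r with Ly6a of at least 0.1. Of 24 interferon-gamma response genes the numbers were 5 and 19. Besides Gbp2, Iigp1, an immunity-related GTPase, stood at 0.13 in IgG and 0.20 in aPD-1, whereas the transcription factor Irf1 stood at −0.01 and 0.07. The median r of this list was 0.07 in IgG and 0.12 in aPD-1, beside 0.00 over all genes in both. Of 13 MHC class I genes, 4 reached 0.1 in each library, among them B2m, the shared light chain (0.15 and 0.19), and the heavy chain gene H2-K1 (0.13 and 0.16). Of 8 progenitor fibroblast genes 6 did so in each library, including Igfbp6, Col3a1, a fibrillar collagen (0.15 in IgG), and Cd34, a surface sialomucin (0.13). The genes that make and attach the GPI anchor numbered 16 and none reached 0.1. At those shares over all genes a list of that size need not hold any, and its median r was 0.00 and 0.02.

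None of 20 S phase genes and 19 G2 and mitosis genes reached 0.1, at the same shares over all genes. Summed over its genes, the G2 and mitosis list stood at 1026 CPM in IgG cells with 0 Ly6a UMIs and at 538 CPM in those with 3 or more, and at 953 and 595 CPM in aPD-1. Of its 19 genes, 15 in IgG and 12 in aPD-1 were at least 1.5-fold lower in the cells with 3 or more, where 6.49% and 4.05% of all genes were. Cenpa, a centromeric histone, was at 114 CPM with 0 Ly6a UMIs and 36.0 CPM with 3 or more in IgG, and at 114 and 42.0 CPM in aPD-1. Of the interferon-gamma list, 13 of 24 genes in IgG and 21 in aPD-1 were at least 1.5-fold higher in the cells with 3 or more, where 5.06% and 9.44% of all genes were. So were 17 of 27 type I interferon-stimulated genes in IgG and 25 in aPD-1. The numbers were 8 and 7 of 8 progenitor fibroblast genes, and 0 and 10 of 13 MHC class I genes. In aPD-1, 1 interferon-gamma gene was at least 1.5-fold lower, where 4.05% of all genes were. Of 7 genes of TNF signalling and cell survival tested with Snai1 among them, such as Birc2 and Birc3, none reached r of 0.1 with Ly6a in either library, where 1.14% and 2.07% of all genes did, so a list this short need not hold any. Its highest were Tnfrsf1a, a TNF receptor (0.07 and 0.09), and in IgG Snai1 (0.07 and 0.03). Tnfrsf1a was 1.80 times as high in IgG cells with 3 or more Ly6a UMIs as in those with 0 (1.49 to 2.15), and 1.77 times in aPD-1 (1.48 to 2.11). It was the only 1 of the 7 at least 1.5-fold higher in IgG, and 1 of 2 in aPD-1, beside 5.06% and 9.44% of all genes. The median ratio of the 7 was 1.13 in IgG and 1.31 in aPD-1.

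**Figure D4:**
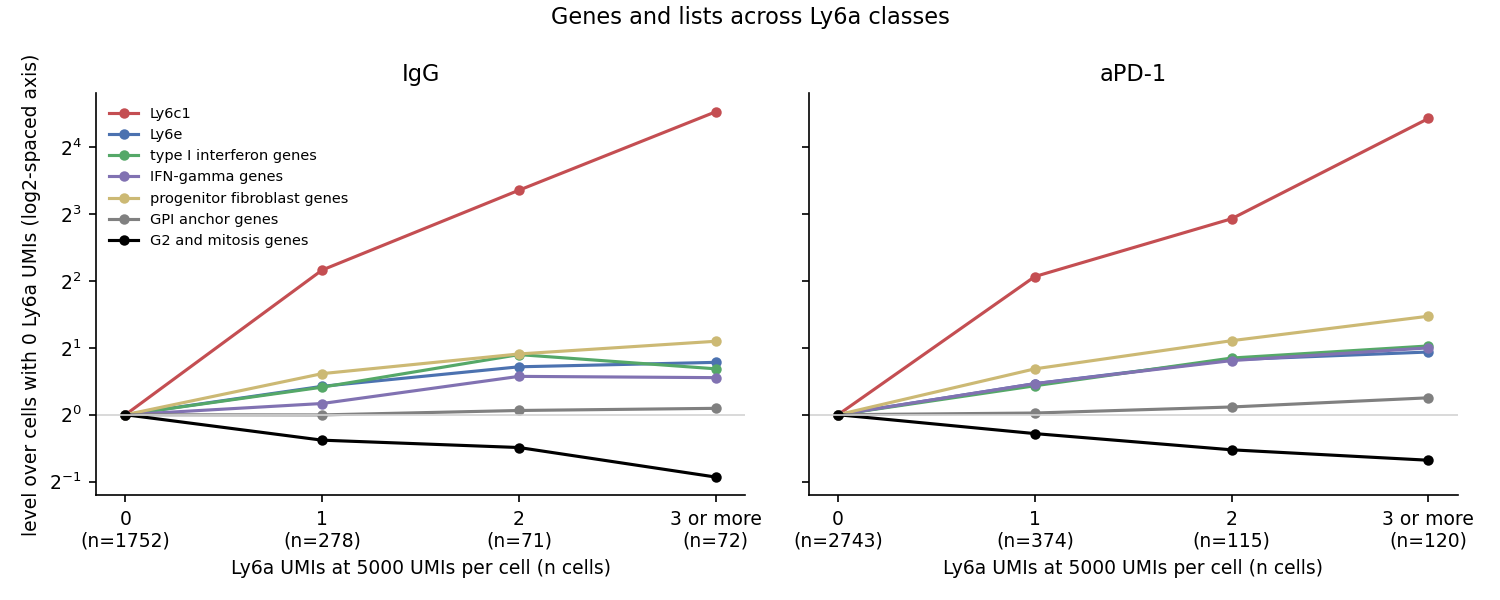
Summed level of Ly6c1, Ly6e and 5 gene lists over their level in cells with 0 Ly6a UMIs (log2-spaced vertical axis) in cells with 0, 1, 2 and 3 or more Ly6a UMIs at 5000 UMIs per cell, for IgG (left) and aPD-1 (right), with the number of cells under each class. Ly6c1 climbs most, from 7.72 to 178 CPM in IgG and from 7.04 to 151 CPM in aPD-1, and the G2 and mitosis list falls, from 1026 to 538 CPM and from 953 to 595 CPM.

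Ly6e and Ly6c1 shared several of these genes. Across IgG cells Ly6e went most with Ifi27l2a (r 0.32, and 0.27 in aPD-1), Ifitm3 (0.27 and 0.30), the copper chaperone Atox1 (0.25 and 0.21), the collagen gene Col6a2 (0.25 and 0.19) and Isg15, a ubiquitin-like interferon-stimulated protein (0.24 and 0.26). Of the 27 type I interferon-stimulated genes, 17 in IgG and 19 in aPD-1 had r with Ly6e of at least 0.1, where 2.72% and 2.5% of all genes had. For Ly6c1, after Ly6a, Igfbp6 (0.15 and 0.13) and Ramp2, a subunit of adrenomedullin receptors (0.13 and 0.09), came next. Ifi27l2a, Ifitm3, Igfbp6 and Ramp2 are also among the 15 genes that went most with Ly6a. None of the 27 genes in IgG and 1 in aPD-1 reached 0.1 with Ly6c1, where 0.158% and 0.259% of all genes did.

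Between treatments, the summed levels of the members differed by little. Among 6961 genes of at least 10 CPM, 0.532% were at least 1.5-fold higher in aPD-1 and 2.84% at least 1.5-fold lower, and none of Ly6a, Ly6e and Ly6c1 was among them. The ratio of aPD-1 over IgG was 0.926 for Ly6a (0.883 to 0.972), 1.01 for Ly6e (0.996 to 1.03) and 0.816 for Ly6c1 (0.744 to 0.894). In log2 these are −0.11, 0.02 and −0.29, beside a median of −0.10 over all genes. Relative to that median Ly6a stood at −0.0099, Ly6e at 0.12 and Ly6c1 at −0.19. With the median of all genes set to 0, 71 genes were at least 1.5-fold higher and 94 lower, in place of 37 and 198. With 1 library each, the treatment and the library cannot be told apart.

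Within clusters the Ly6a ratio went both ways. In cluster 0 it was 1.23 (1.16 to 1.31) and in cluster 3 it was 0.737 (0.643 to 0.846), while in cluster 1 it was 0.902 and in cluster 2 the levels were 51.6 and 51.7 CPM, with intervals of the ratio that include 1 in both. Cluster 0 held 971 of the 2173 IgG tumour cells and 1038 of the 3352 aPD-1 tumour cells, and cluster 3 held 184 and 613. With the aPD-1 clusters weighted by their IgG shares, the Ly6a log2 ratio over all cells turned to 0.14, and to 0.026 when cells counted alike whatever their depth. The direction of the Ly6a difference in the sums thus depended on how cells were weighted. At the finer resolution, where 9 clusters could be compared, the Ly6a interval lay above 1 in 4 and below 1 in 2. The highest ratios were 1.81 (1.40 to 2.35), in cells led by Gadd45a and Plk2, and 1.51 (1.36 to 1.67), in cells led by Lbp, Gsn and Cpq.

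Ly6e was above 1 in each of clusters 0 to 3, at 1.10 (1.07 to 1.13), 1.07 (1.04 to 1.10), 1.05 (0.987 to 1.11) and 1.13 (1.08 to 1.19), although its ratio over all cells was 1.01. Ly6c1 was at 1.06 in cluster 0 (0.932 to 1.20) and 0.893 in cluster 1 (0.721 to 1.11), and lower in cluster 2, at 0.692 (0.523 to 0.917), and cluster 3, at 0.592 (0.458 to 0.767). In the fine cluster led by Mx1, Ly6c1 was at 26.3 CPM under IgG and 56.2 CPM under aPD-1, a ratio of 2.14 (1.56 to 2.96). Keeping the macrophage-like and endothelial-like cells of at least 5000 UMIs moved the log2 ratio to −0.36 for Ly6a and −0.71 for Ly6c1. Those cells were 23 endothelial-like and 2 macrophage-like ones under IgG, and 4 endothelial-like ones under aPD-1.

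**Figure D5:**
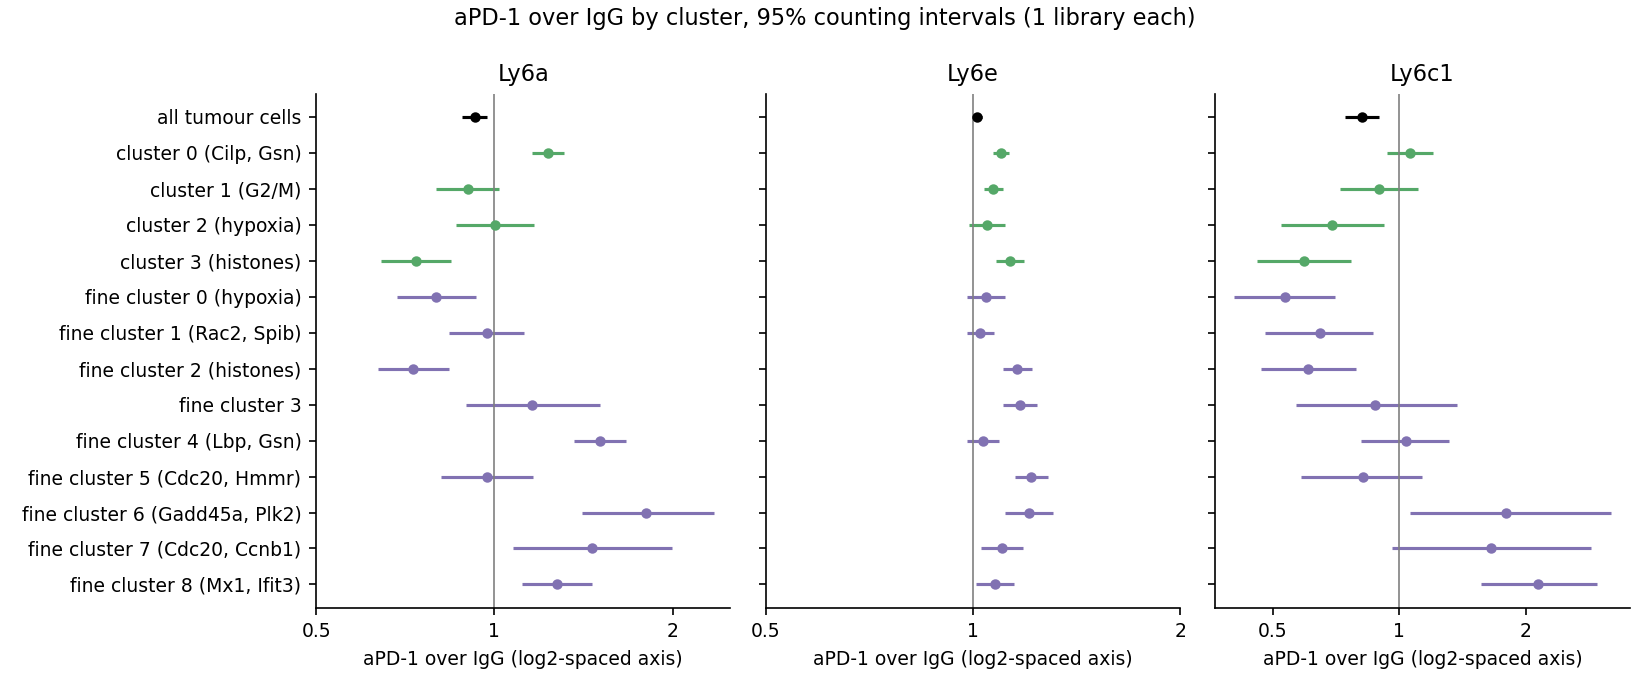
Ratio of aPD-1 over IgG (log2-spaced axis, grey line at 1) of Ly6a, Ly6e and Ly6c1 in all tumour cells (black), in clusters 0 to 3 (green) and in the 9 fine clusters with at least 100 cells of each library (purple), with 95% counting intervals and 1 library per treatment. Ly6a lies on both sides of 1, from 0.730 to 1.81 among fine clusters, while the Ly6e points all lie above 1.

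The rest of the family was mostly silent in these cells. Of 36 other Ly6 and uPAR family genes listed, 32 matched a counted gene. Plaur, the urokinase receptor, was the 1 gene of at least 10 CPM, at 31.6 CPM under IgG and 29.7 CPM under aPD-1 (ratio 0.939, interval 0.877 to 1.01). Lypd2 (4.38 and 2.43 CPM), Lynx1 (3.57 and 3.13 CPM), Slurp1 (2.57 and 2.28 CPM) and Tex101 (2.08 and 1.51 CPM) lay between 1 and 10 CPM. Another 16 had UMIs but stayed under 1 CPM, and 11 had none in either library. Ly6i, which lies between Ly6e and Ly6a on the chromosome, had 17 and 16 UMIs. Ly6g, on the far side of Ly6c2 and the defining surface marker of neutrophils, had 0 in both.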

How the data were processed

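The deposited matrices hold counts of UMIs per gene and barcode, which the authors made with Cell Ranger 3.0.2 per the file headers. Seurat 2.1.0 and the build mm10 also appear in the submitters' processing notes. Which annotation was used is not stated there. The IgG matrix holds 4351 called barcodes (52720076 UMIs) and the aPD-1 matrix 737280 barcodes (68385785 UMIs). Levels are CPM of summed UMIs with exact Poisson intervals, shares carry Clopper-Pearson intervals, and ratios exact conditional binomial intervals.

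Cells of at least 1000 UMIs (aPD-1: 4593), 500 genes and at most 10% mitochondrial UMIs were clustered in scanpy 1.11.5 with leidenalg 0.10.2 (2000 variable genes without Ly6 and uPAR family genes, 30 components, 15 neighbours, resolution 0.5). A cluster was named with at least 3 markers of a type among its 10 top genes by fold. Below the floor of 5000 UMIs, 137 IgG and 9 aPD-1 cells outside the named types were left out. Doublets were not removed. Promoters and transcripts were aligned with Biopython 1.88. On simulated counts over 7058 genes for the aPD-1 over IgG ratio, 95.3% of intervals held the true ratio. These counts were drawn with counting error alone, without spread between cells or libraries. The simulation therefore checks only how the intervals were computed.

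Named are the 4 members, the 15 genes of highest and 5 of lowest r with Ly6a in IgG (at least 10 CPM), up to 6 other family genes, extreme members of each list, the top 5 genes of clusters, and Snai1. Other genes are named as markers or list members, or after their values were seen (Hmgb2 levels, Ly6i, Ly6g, the partners of Ly6e and Ly6c1 and the fine clusters' genes). The members and lists were chosen with earlier results of these data known.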

Additional observations from a re-analysis of the deposited data

Results flagged for a closer look

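The Ly6a ratio of aPD-1 over IgG was 1.23 in cluster 0, with the whole counting interval above 1, and 0.737 in cluster 3, with the whole interval below 1. The clusters moved in opposite directions in the same pair of libraries, and the difference between them was not tested.

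Ly6c2 stood at 524 CPM in aPD-1 barcodes of 100 to 499 UMIs, data outside the cells compared, where the aPD-1 tumour cells had 0.114 CPM. The IgG matrix lists no barcodes of that depth.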

How the results depend on the processing

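No paired analysis was possible because each treatment has 1 library. Without replicates, intervals cover counting error only, and Ly6c2, with 0 UMIs in IgG tumour cells, has no ratio. The log2 ratio of aPD-1 over IgG for Ly6a was 0.026 when cells counted alike whatever their depth, and 0.14 with aPD-1 clusters weighted by IgG shares (Ly6e 0.13, Ly6c1 −0.0632, 130 genes 1.5-fold lower). With fine clusters as weights, added after seeing the data, Ly6a was at 0.25, Ly6e at 0.14 and Ly6c1 at −0.0956, with 17 genes higher and 73 lower. With the other named cell types kept, Ly6a was at −0.36 and Ly6c1 at −0.71. With ribosomal protein and mitochondrial genes left out of the totals, Ly6a was at −0.0099 and Ly6e at 0.12, with 99 genes higher and 130 lower, and with the median of all genes set to 0 they were at −0.0099 and 0.12, with 71 and 94. The cause was not tested. Ly6a and Ly6c1 met in 3.82 (IgG) and 3.55 (aPD-1) times the expected number of cells at 2000 UMIs per cell, 1.88 and 2.00 times without thinning, and 2.1 times in aPD-1 within fine clusters. In aPD-1 Ly6a and Ly6e met 1.34 times at 2000 UMIs and 1.02 times without thinning, and Ly6e and Ly6c1 1.31 times at 2000 UMIs. In barcodes of 50 to 500 UMIs the level over that in cells was 5.36 for Ly6a, 1.12 for Ly6e, 0.585 for Ly6c1 and 1996 for Ly6c2. The other 70 values for the ratios, gene counts, co-detection, partner counts and low-UMI barcodes stayed within the interval, or within 1.5 times for a count. Their direction was kept except where the interval already included no change: the Ly6e log2 ratio was −0.00053 when cells counted alike, and in barcodes of 10 to 50 UMIs the level over that in cells was 0.884 for Ly6a and 1.11 for Ly6c1. Of 100 values of r for the 20 genes named with Ly6a, 48 left their interval and none changed sign.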
